A study of Arabidopsis thaliana with 22 samples.

Results

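A set of genes whose transcripts stood low at both 1 and 3 h was followed in Arabidopsis thaliana seedlings and leaves. Its 27 genes were chosen from 33318 genes counted in wild-type (WT) seedlings, 15486 of which reached the required starting level. A gene was taken when its mean at 0 h was at least 5 CPM (counts scaled to a library total of 1 M) and its log2 ratio of mean CPM + 1 was at most -0.9 both at 1 h and at 3 h against 0 h. The rule allows up to 150 genes, and 27 passed. Since the WT seedling libraries chose the genes, their values are given as a description, with no test, and tests were made in the double mutant and in leaves.

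The groups were aitf1-1asr3-1 seedlings, a double mutant in a pair of trihelix transcription factor genes, and Col-0 WT seedlings. Both were labelled 10 days old. Each genotype had 3 libraries at every sampling time, which were 0, 1 and 3 h. Leaves of 3-week-old plants came from an AITF1 overexpression line (OXAITF1) and from Col-0 WT, with 2 libraries each. All groups were recorded with 12 h of light per day. Neither the treatment that starts at 0 h nor the promoter driving AITF1 nor the number of independent lines is named in the labels. No untreated libraries at 1 or 3 h were analysed here, so the treatment, time of day and time since handling cannot be told apart. For seedlings the protocol for growth gives an age of 14 days instead of 10. Replicates are not stated to be separate cultures, so that p-values measure the spread between libraries, which may be technical.

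Library totals were 17.1 to 21.6 M counts in aitf1-1asr3-1 seedlings, 17.8 to 21.6 M in WT seedlings, 17.3 to 19.4 M for leaves of OXAITF1 and 15.3 to 16.6 M for leaves of WT. The reference used here names no AITF1 locus, and AT3G11100, annotated as a DNA-binding transcription factor, was taken as a candidate for it because of its level in OXAITF1 leaves. It stood there at 2954 and 3839 CPM, against 14.4 and 14.4 CPM in WT leaves. In seedlings, AT3G11100 ranged from 22.9 to 45.6 CPM in the mutant and from 46.6 to 71.1 CPM in WT. ASR3 (AT2G33550) ranged from 5.59 to 8.64 CPM in the mutant and from 9.79 to 13.5 CPM in WT. The 2 OXAITF1 libraries differed from each other more than the WT leaf pair did, at 72.3 for chi-square over degrees of freedom, against 11.5 in WT.

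Plant cells enlarge when wall-loosening proteins let the cellulose and xyloglucan network slide under turgor. Gibberellin, brassinosteroid, cytokinin and light signals converge on this process, partly through PIF transcription factors. Perception of microbial patterns is known to slow seedling growth and to lower growth-related and photosynthetic transcripts while defence transcripts accumulate. Trihelix proteins bind GT elements in promoters, and ASR3 is known as a repressor of pattern-triggered genes.

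By their annotation the 27 genes fell into 5 loose roles, assigned once the genes were known. There were 7 genes of the cell wall and arabinogalactan proteins, 3 secreted growth or signalling proteins and 5 intracellular signalling proteins. A further 5 belonged to chloroplast, sugar and transport functions, and 7 were little described. They lay on all nuclear chromosomes, with 5 on chromosome 1, 4 on chromosome 2 and 6 each on chromosomes 3, 4 and 5. They were short genes with few introns. Their median transcript length was 1253 bp, against 1820 bp for all seedling genes at or above the starting level, and their median exon number was 2, against 5. Single-exon genes made up 40.7% of them (11 of 27) and 12.4% of the background genes. A gene on the opposite strand overlapped AT5G39520, EXLA1, LHB1B2, XTH15, AT3G15570, AT3G52720 and GATL6, and the strand setting of the counting is not given, so reads of these 7 genes and their partners may be mixed.

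Promoters were read from 250 bases before to 50 bases after the annotated start, on both strands, from the RefSeq TAIR10.1 genome. The TATA box letters TATAAA were present in 18 of 27 windows (66.7%), against 51.0% of 15474 background windows. The GT1 letters GGTTAA, a target type of trihelix proteins, were found in 5 of 27 windows (18.5%), near the 17.8% of the background. The W-box core TTGAC, bound by WRKY proteins, was found in 13 of 27 (48.1%), against 50.7%. Counts were 2 of 27 (7.41%) for the G-box CACGTG, a target of PIF proteins, against 8.85%, and 3 of 27 (11.1%) for the evening element core AAATATC, against 14.6%. The auxin element letters TGTCTC were in 5 of 27 (18.5%, background 13.2%) and TGTCGG in 3 of 27 (11.1%, background 5.69%). The I-box GATAAG was in 2 of 27 (7.41%), against 15.2%, and the telo-box AAACCCT in 1 of 27 (3.70%), against 9.37%. The TCP site GGNCCC was in 3 of 27 (11.1%, background 10.0%), and the ERF box GCCGCC was in 0 of 27, against 2.62%. All motifs, TATAAA included, were within a few members of their background shares, and no share was tested. TATAAA matches were counted anywhere in the window on either strand. In RALF23 the match was at -205 on the opposite strand, in XTH24 at 31 after the start, and in LHB1B2 at -31 on the gene's strand. These are matches of letters and no binding was measured.

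**Figure D1:**
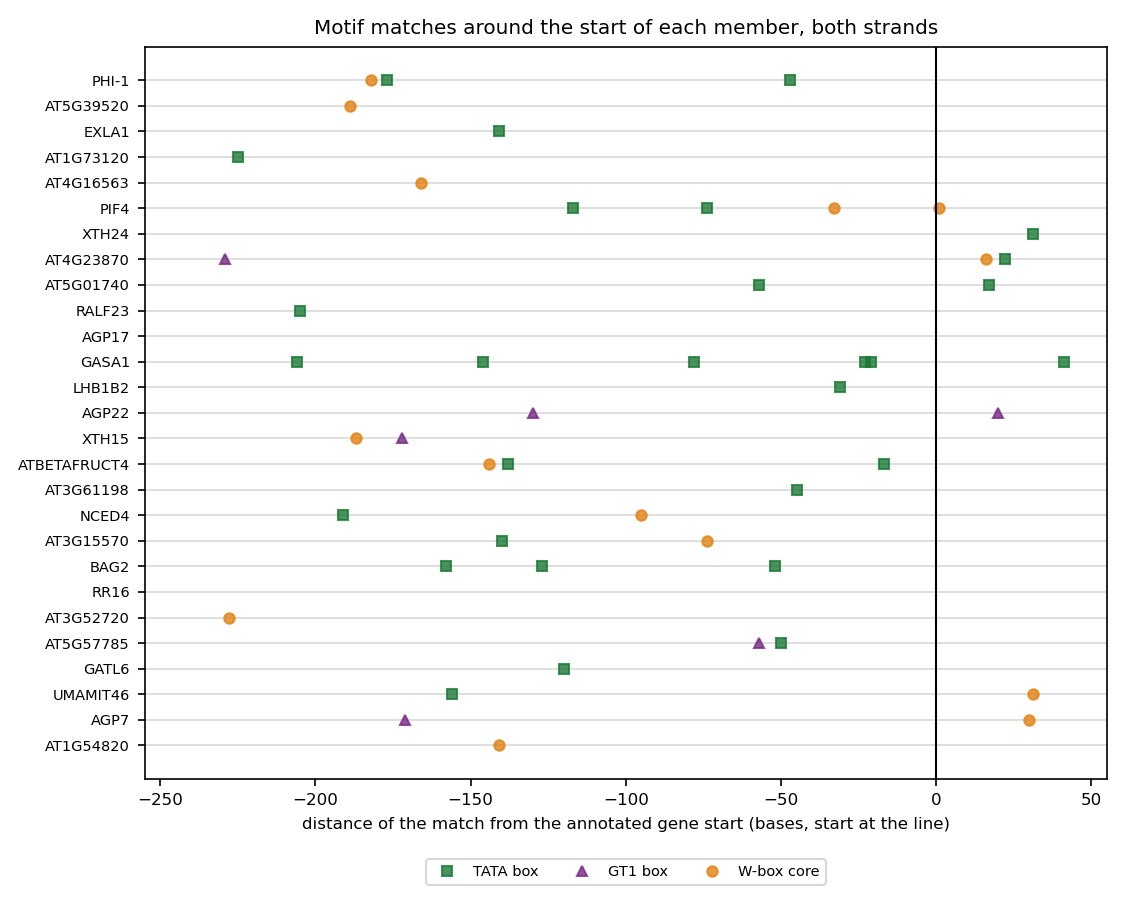
Positions of TATA box, GT1 box and W-box core letters in the promoter window of each of the 27 genes. The horizontal axis is the distance in bases of each match from the annotated gene start, and each row is a gene. The 18 genes with a TATA box match and the 5 with a GT1 match are spread over the list.

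The upstream 250 bases of 4 members are shown because they hold the motifs most often linked to the trihelix family or to the core promoter. Capitals mark TATAAA or GGTTAA on either strand, so that TTTATA and TTAACC are matches on the opposite strand. PHI-1 (chr1:12851733-12851982, plus strand) has TATA letters on the opposite strand at 2 places. GASA1 (chr1:28442436-28442685, minus strand) holds several TATA matches. XTH15 (chr4:8138393-8138642, minus strand) and AGP7 (chr5:26129548-26129797, minus strand) each hold 1 GT1 match, read on the gene's strand in XTH15 and on the other strand in AGP7.
PHI-1: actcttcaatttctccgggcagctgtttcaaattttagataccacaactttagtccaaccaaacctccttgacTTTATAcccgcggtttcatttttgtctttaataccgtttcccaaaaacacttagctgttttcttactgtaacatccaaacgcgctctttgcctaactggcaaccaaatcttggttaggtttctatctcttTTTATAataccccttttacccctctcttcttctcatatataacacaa
GASA1: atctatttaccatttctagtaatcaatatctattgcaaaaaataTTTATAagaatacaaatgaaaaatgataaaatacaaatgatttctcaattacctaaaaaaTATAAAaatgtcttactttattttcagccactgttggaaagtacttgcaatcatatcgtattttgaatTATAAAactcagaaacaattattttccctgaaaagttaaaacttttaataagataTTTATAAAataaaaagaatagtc
XTH15: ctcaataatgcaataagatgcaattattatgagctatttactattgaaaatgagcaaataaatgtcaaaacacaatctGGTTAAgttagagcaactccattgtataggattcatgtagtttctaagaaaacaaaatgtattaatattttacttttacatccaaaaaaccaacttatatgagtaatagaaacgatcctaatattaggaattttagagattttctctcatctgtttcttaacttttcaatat
AGP7: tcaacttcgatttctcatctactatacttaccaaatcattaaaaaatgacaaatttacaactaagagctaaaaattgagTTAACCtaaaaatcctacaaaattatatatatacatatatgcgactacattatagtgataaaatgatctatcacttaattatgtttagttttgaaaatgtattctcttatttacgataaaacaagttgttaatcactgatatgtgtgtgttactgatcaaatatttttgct

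In WT seedlings the median member changed by -1.51 at 1 h and -1.0001 at 3 h against 0 h on the log2(CPM + 1) scale. Those values define the set. Among all genes at or above the starting level, 3.77% were at or below -0.9 at 1 h and 0.452% at 3 h. The name given to the set is borne out only in part, since 23 of 27 genes were lower at 1 h than at 3 h in WT means, and so were 22 of 27 in the mutant. By the order of the means, most genes were lowest at 1 h and part of the way back at 3 h. For some the WT means at 1 and 3 h were nearly equal, as for AGP7 at 17.1 and 17.7 CPM. The exceptions in WT were AT5G01740, AGP22, AT3G52720 and AT1G54820, which were lower at 3 h.

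Many members lay close to the 3 h threshold. The last inside it were AT3G15570 at -0.90, AGP17 at -0.90, UMAMIT46 at -0.91 and EXLA1 at -0.91. The first outside it were EXPB1, a beta-expansin, at -0.90 on the 1 h side, and at 3 h EXPA8, an alpha-expansin, at -0.89, KIN2, a cold-induced gene, at -0.89, and LHCB3, a light-harvesting protein, at -0.89. AT3G50120 and AT1G18020 passed both thresholds but started at 4.47 and 2.42 CPM. Membership therefore depended on single WT libraries. Without WT 3 h replicate 1, 97 genes passed, all 27 among them. Without WT 3 h replicate 3 only 12 of the 27 remained, without WT 0 h replicate 1 16 remained, and without WT 3 h replicate 2 20 remained. Without any other single WT library 24 to 26 remained. With TMM scaling, which corrects for composition, 23 genes passed and 21 were shared.

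**Figure D2:**
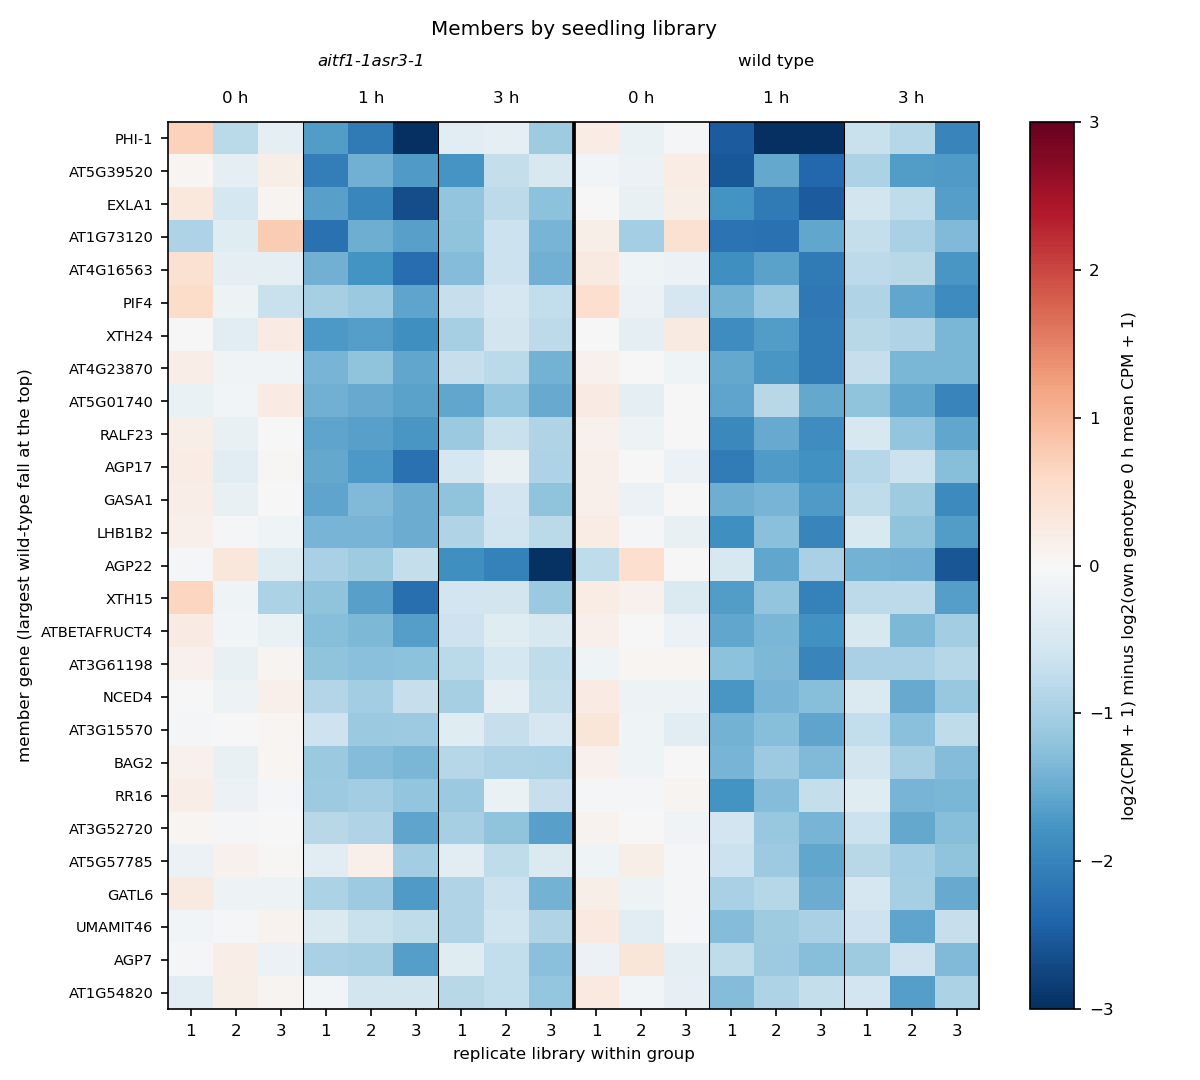
Each cell is the log2(CPM + 1) of 1 gene in 1 seedling library minus the log2 of the mean CPM + 1 of its own genotype at 0 h, with aitf1-1asr3-1 libraries on the left and wild-type libraries on the right. Values past the ends of the colour scale take the end colour. The 1 h columns are the darkest blue for most genes, AGP22 is darkest at 3 h, and WT 3 h replicate 1 is paler than the other WT 3 h libraries for most genes.

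The same rule applied to the mutant libraries alone gave 20 genes. They shared 10 with the WT set, which is 37.0% of the 27 and 50% of the 20. On the rule's own scale the mutant medians of the 27 genes were -1.38 at 1 h and -0.80 at 3 h, with all 27 below 0 at both times. At 1 h 23 of 27 passed the threshold in the mutant and at 3 h 10 did. The mutant's fall was smaller than that in WT for 22 genes at 1 h and 21 at 3 h, a direction that picking genes by their WT fall favours, and it was not tested.

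The mutant libraries, which had no part in the choice, were tested with edgeR's quasi-likelihood test over 20737 genes with Benjamini-Hochberg adjustment. At 1 h 25 of 27 genes were lower than at 0 h at an adjusted p under 0.05 and 0 were higher, with a median log2 change of -1.45, against 0.04 for all genes. In this comparison 19.8% of all genes tested were called lower and 22% higher. By another tool, DESeq2, 26 were lower. At 3 h 19 of 27 were lower than at 0 h and 0 higher, with a median of -0.79, against -0.01 for all genes. Here 8.5% of all genes were called lower and 14.1% higher. DESeq2 called 20 lower. At 3 h 24 of the 27 had an unadjusted p under 0.05. Both comparisons use the same 0 h libraries, so they are not independent of each other. The genes not called at 1 h were AT5G57785 and AT1G54820, and those not called at 3 h were PHI-1, AT5G39520, AT1G73120, PIF4, AGP17, XTH15, RR16 and AT5G57785.

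**Figure D3:**
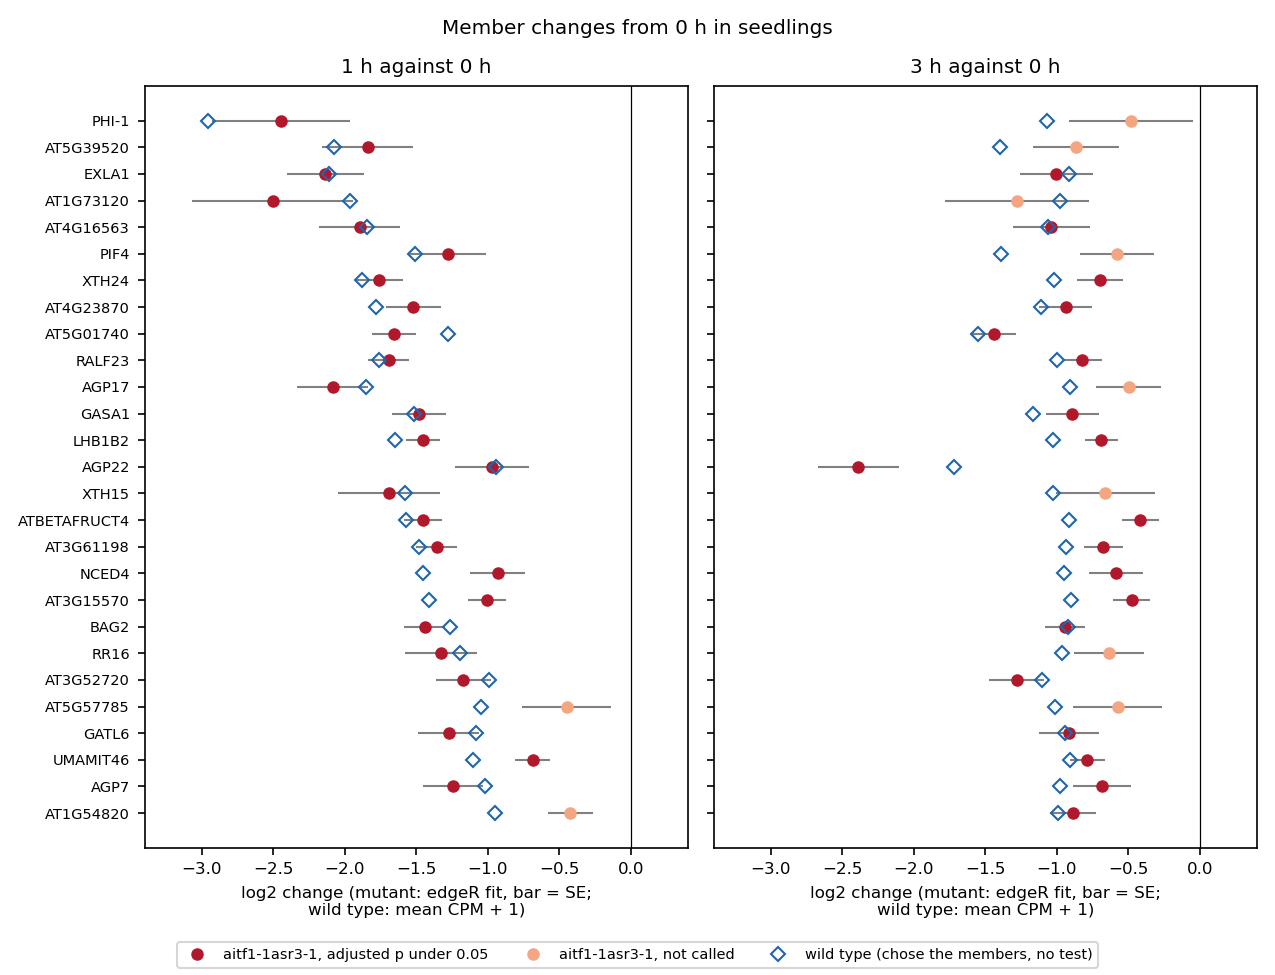
Log2 change of each gene at 1 h and at 3 h against 0 h. Filled circles are edgeR estimates in aitf1-1asr3-1 with bars of 1 SE, dark where the adjusted p was under 0.05. Open diamonds are WT changes of mean CPM + 1, which chose the genes and carry no test. Of the 27 circles, 25 are dark at 1 h and 19 at 3 h.

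All 7 cell wall genes were called lower in the mutant at 1 h, with log2 changes of -2.14 to -0.97. This was not particular to them, as 25 of all 27 members were called lower then. At 3 h 5 of the 7 were called lower, beside 19 of all 27 members. Xyloglucan endotransglucosylase/hydrolases (XTHs) cut and rejoin the xyloglucan tethers of the wall. XTH24 was the most abundant of the wall genes in CPM, at 1377, 1095 and 1611 CPM in mutant libraries at 0 h, 412, 432 and 382 at 1 h and 680.3, 932 and 787 at 3 h. In WT it was at 1573, 1309.7 and 1912 CPM at 0 h, 437, 498 and 366 at 1 h and 894, 854 and 613 at 3 h. Every later library lay below every 0 h library in both genotypes, and the 3 h libraries lay above those at 1 h. In the mutant XTH24 fell by 1.76 on the log2 scale at 1 h (SE 0.16, edgeR adjusted p = 1.78e-05) and by 0.70 at 3 h (SE 0.16, adjusted p = 0.00986).

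XTH15, another wall enzyme of the same family, was at 199.9, 117 and 65.5 CPM in mutant libraries at 0 h, 54.8, 40.6 and 25.99 at 1 h and 85.2, 87.1 and 58.8 at 3 h. In WT it was at 144, 137 and 92.3 CPM at 0 h, 38.4, 54.4 and 29.8 at 1 h and 71.2, 71.5 and 38.8 at 3 h. The mutant 0 h libraries spread widely, and the lowest of them fell inside the 3 h range. It fell by 1.69 at 1 h (SE 0.36, edgeR adjusted p = 0.00305), while the 3 h change of -0.66 (SE 0.34) did not pass the test (adjusted p = 0.197). In the whole XTH family, counted by name after the members were known, 18 of 30 tested genes were lower at 1 h and 4 higher, and 12 were lower and 3 higher at 3 h. For this and the later families and lists, the shares of all genes called lower and higher were 19.8% and 22% at 1 h. The shares were 8.5% and 14.1% at 3 h, and 10.4% and 9.36% in leaves. XTH25 (-2.46), XTH6 (-2.17) and TCH4 (-1.66) fell at 1 h, while XTH18 (2.53) and XTH2 (2.32) rose (log2 changes, edgeR adjusted p = 4.86e-05, 2.02e-05, 0.002, 2.82e-05 and 0.00238).

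EXLA1 is an expansin-like protein, a relative of the expansins that loosen walls without cutting them. It was at 79.1, 43.9 and 66.4 CPM in mutant libraries at 0 h, 19.7, 15.5 and 9.16 at 1 h and 27.4, 36.5 and 26.4 at 3 h, with no overlap between the times. It fell by 2.14 at 1 h (SE 0.27, edgeR adjusted p = 0.000116) and by 1.00 at 3 h (SE 0.25, adjusted p = 0.0164). The 3 h call was lost without mutant 0 h replicate 1 (adjusted p = 0.0628), 3 h replicate 1 (0.0623) or 3 h replicate 3 (0.0559). Of 25 tested expansins and expansin-like genes, 3 were lower and 5 higher at 1 h, the other lower ones being EXLA2 (-1.20) and EXPA8 (-0.86) (edgeR adjusted p = 0.00299 and 0.0021). The share lower did not exceed the 19.8% of all genes at 1 h. At 3 h 6 of the 25 were lower and 3 higher, and in leaves 8 of 19 tested were lower in OXAITF1 and 1 higher, with a median of -1.12. EXPA5 (0.93) and EXPA15 (0.58) were among the higher ones at 1 h (adjusted p = 0.00399 and 0.00368).

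GATL6 is a galacturonosyltransferase-like protein of wall polysaccharide synthesis. In mutant libraries it was at 71.9, 53.9 and 53.4 CPM at 0 h, 30.3, 27.6 and 17.7 at 1 h and 31.3, 37.8 and 21.6 at 3 h. All later libraries lay below those at 0 h, and the 1 h and 3 h ranges overlapped. It fell by 1.27 at 1 h (SE 0.21, edgeR adjusted p = 0.000754) and by 0.91 at 3 h (SE 0.21, adjusted p = 0.0106). A wider list of wall loosening and extension genes held 92 tested genes, of which 32 were lower and 10 higher at 1 h and 26 lower and 7 higher at 3 h, with medians of -0.20 and -0.39. The list was built on symbol prefixes, so it also holds the splicing factors PRP40A and PRP40B.

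Arabinogalactan proteins are heavily glycosylated proteins of the cell surface. AGP17, also known for its part in Agrobacterium transformation of roots, was at 18.7, 12.5 and 16.2 CPM in mutant libraries at 0 h, 4.77, 4.09 and 2.57 at 1 h and 10.7, 13.5 and 7.86 at 3 h. It was lowest at 1 h and had largely returned by 3 h, where its range reached into that at 0 h. It fell by 2.09 at 1 h (SE 0.25, edgeR adjusted p = 8.42e-05). The 3 h change was -0.50 (SE 0.22, adjusted p = 0.14).

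AGP22, a short AG peptide, had a different course. It was at 20.1, 27.04 and 16.2 CPM in mutant libraries at 0 h, 10.2, 9.64 and 12.5 at 1 h and 5.14, 4.41 and 1.81 at 3 h. In WT it was at 9.72, 24.5 and 17.05 CPM at 0 h, 11.9, 5.15 and 8.24 at 1 h and 5.81, 5.67 and 2.06 at 3 h. In the mutant each time lay below the one before, whereas in WT the ranges at 0 and 1 h overlapped. It fell by 0.97 at 1 h (SE 0.26, edgeR adjusted p = 0.0111) and by 2.39 at 3 h (SE 0.28, adjusted p = 0.000185), the lowest 3 h estimate among the 27. The 1 h call was lost without mutant 0 h replicate 2 (log2 change -0.79, adjusted p = 0.0507).

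AGP7, a classical arabinogalactan protein, was at 40.2, 48.1 and 36.9 CPM in mutant libraries at 0 h, 20.7, 20.3 and 12.7 at 1 h and 32.4, 24.6 and 16.98 at 3 h. All libraries after 0 h were below those at 0 h. It fell by 1.24 at 1 h (SE 0.21, edgeR adjusted p = 0.000724) and by 0.68 at 3 h (SE 0.20, adjusted p = 0.0331), a call lost without mutant 0 h replicate 1 or 2 or 3 h replicate 2 or 3 (adjusted p = 0.0737, 0.104, 0.0821 and 0.0914). Of 29 tested genes with an AGP name, 9 were lower and 4 higher at 1 h, and 12 were lower and 2 higher at 3 h. Among them AGP41 (-1.35) and AGP30 (-2.01) were lower at 3 h and AGP5 (4.31) was higher (log2 changes, edgeR adjusted p = 0.000622, 0.00695 and 0.000833).

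**Figure D4:**
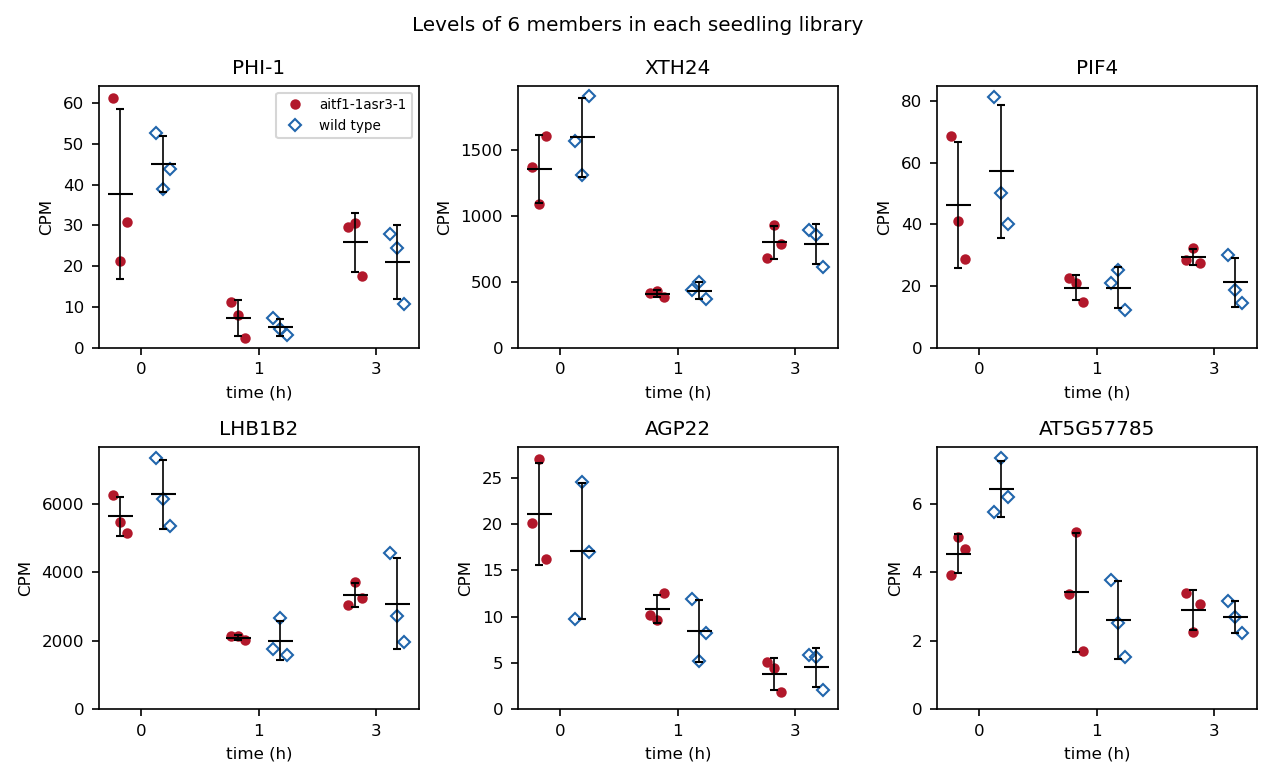
Levels in CPM of PHI-1, XTH24, PIF4, LHB1B2, AGP22 and AT5G57785 in each seedling library at 0, 1 and 3 h, with aitf1-1asr3-1 as filled circles left of wild type as open diamonds. Lines and bars are the mean and SD of 3 libraries. PHI-1 is lowest at 1 h and partly back at 3 h, while AGP22 is lowest at 3 h.

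Among the secreted proteins, all 3 were lower at 1 h in the mutant and 2 of 3 at 3 h. PHI-1, a phosphate-responsive protein of the EXORDIUM family, had the lowest sum of the WT changes. It was at 61.3, 21.3 and 30.8 CPM in mutant libraries at 0 h, 11.2, 7.97 and 2.38 at 1 h and 29.5, 30.5 and 17.5 at 3 h. In WT it was at 52.6, 38.98 and 43.9 CPM at 0 h, 7.19, 4.59 and 3.01 at 1 h and 27.97, 24.4 and 10.8 at 3 h. The 1 h libraries were below all others in both genotypes, and in the mutant the 3 h range overlapped that at 0 h. It fell by 2.45 at 1 h (SE 0.48, edgeR adjusted p = 0.00203). The 3 h change of -0.48 (SE 0.43) missed the threshold (adjusted p = 0.463). It became 0.0601 without mutant 0 h replicate 1.

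PHI-1 was also listed among genes that rise early after microbial patterns. Of 27 tested genes of that list, 23 were higher at 1 h and at 3 h, with median log2 changes of 2.02 and 1.67. PHI-1 was the 1 gene of the list called lower at 1 h. WRKY53 rose by 3.47 and FRK1 by 3.90 at 1 h (edgeR adjusted p = 4.43e-06 and 0.000277).

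RALF23, a secreted peptide sensed by the receptor kinase FERONIA that dampens immune signalling, was at 261, 196 and 232 CPM in mutant libraries at 0 h, 75.5, 72.99 and 67.9 at 1 h and 105, 145 and 122 at 3 h. The 3 times did not overlap. It fell by 1.70 at 1 h (SE 0.14, edgeR adjusted p = 9.75e-06) and by 0.82 at 3 h (SE 0.14, adjusted p = 0.00176).

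GASA1, a cysteine-rich peptide of a gibberellin-regulated family, was among the most abundant members, at 2048, 1518 and 1789 CPM in mutant libraries at 0 h, 595, 714 and 632 at 1 h and 774, 1207 and 774 at 3 h. All later libraries were below those at 0 h and the 3 h libraries were above those at 1 h. It fell by 1.49 at 1 h (SE 0.19, edgeR adjusted p = 0.000125) and by 0.89 at 3 h (SE 0.19, adjusted p = 0.00625). In the list of gibberellin and brassinosteroid genes, 11 of 21 were lower and 3 higher at 1 h, and 4 lower and 3 higher at 3 h. GASA6 (-1.08), the gibberellin synthesis gene GA20OX2 (-1.74) and the brassinosteroid synthesis gene CPD (-0.88) fell at 1 h, and the gibberellin-inactivating GA2OX6 (2.98) rose (log2 changes, edgeR adjusted p = 3.43e-05, 0.0019, 5.24e-05 and 2.9e-05).

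Of the 5 intracellular signalling genes, 4 were lower at 1 h and 3 at 3 h. PIF4, a bHLH transcription factor that promotes growth in shade and warmth, was at 68.7, 41.1 and 28.8 CPM in mutant libraries at 0 h, 22.5, 20.9 and 14.8 at 1 h and 28.4, 32.4 and 27.4 at 3 h. WT libraries had 81.4, 50.1 and 40.03 CPM at 0 h, 20.9, 25.3 and 12.1 at 1 h and 30.1, 18.8 and 14.6 at 3 h. The mutant 0 h libraries spread widely, and the lowest of them fell inside the 3 h range. It fell by 1.28 at 1 h (SE 0.27, edgeR adjusted p = 0.00282), and its 3 h change was -0.58 (SE 0.26, adjusted p = 0.135). In the list of light and shade signalling genes 18 of 43 were lower and 6 higher at 1 h, against 2 lower and 8 higher at 3 h. PIF3 and PIL6 (also PIF5), relatives of PIF4, fell by 0.56 and 0.52 at 1 h and rose by 0.35 and 0.49 at 3 h (edgeR adjusted p = 0.00135, 0.00302, 0.0297 and 0.00847).

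RR16 is a type-A response regulator, a class that is induced by cytokinin and damps its signal. It was at 10.2, 7.53 and 8.26 CPM in mutant libraries at 0 h, 3.53, 3.66 and 3.27 at 1 h and 3.48, 7.42 and 4.999 at 3 h. All later libraries were below those at 0 h, the highest at 3 h only just. It fell by 1.33 at 1 h (SE 0.25, edgeR adjusted p = 0.00169), and its 3 h change was -0.64 (SE 0.24, adjusted p = 0.0862). In the list of type-A regulators and cytokinin enzymes 4 of 21 were lower and 5 higher at 1 h, and 6 lower and 4 higher at 3 h. The 1 h counts were near the 19.8% lower and 22% higher of all genes. At 3 h 8.5% of all genes were lower and 14.1% higher. The type-A genes ARR6 (-1.21), ARR7 (-0.83) and RR5 (-0.77) were lower at 3 h (log2 changes, edgeR adjusted p = 0.000329, 0.0024 and 0.00546). The cytokinin oxidase CKX4 rose by 2.78 at 1 h (adjusted p = 1.22e-05).

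AT3G15570, of the NPH3 family named for a phototropism protein, was at 18.98, 19.5 and 20.3 CPM in mutant libraries at 0 h, 12.4, 8.57 and 8.76 at 1 h and 14.97, 11.8 and 13.6 at 3 h. It fell by 1.01 at 1 h (SE 0.13, edgeR adjusted p = 0.000157) and by 0.47 at 3 h (SE 0.13, adjusted p = 0.0235). The later libraries all lay below those at 0 h. The 3 h call was lost without mutant 0 h replicate 1 (adjusted p = 0.0509), 0 h replicate 3 (0.0641) or 3 h replicate 2 (0.0863), and in a fit of all 18 seedling libraries (0.0854).

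BAG2, a cochaperone of the family that binds Hsp70, was at 13.9, 10.7 and 13.2 CPM in mutant libraries at 0 h, 5.33, 4.53 and 4.31 at 1 h and 6.53, 6.17 and 6.04 at 3 h. The replicates were close and the 3 times did not overlap. It fell by 1.44 at 1 h (SE 0.14, edgeR adjusted p = 2.65e-05) and by 0.94 at 3 h (SE 0.14, adjusted p = 0.000723).

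AT1G54820, annotated as a protein kinase, was at 15.4, 22.2 and 20.5 CPM in mutant libraries at 0 h, 18.3, 12.98 and 12.8 at 1 h and 10.5, 11.2 and 8.13 at 3 h. At 1 h 1 library was inside the 0 h range, and at 3 h all were below. Its 1 h change was -0.42 (SE 0.16, edgeR adjusted p = 0.0513) and it fell by 0.89 at 3 h (SE 0.16, adjusted p = 0.00287).

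All 5 genes of chloroplast, sugar and transport functions were lower at both times in the mutant. LHB1B2, a light-harvesting chlorophyll-binding protein of photosystem II, was the most abundant member, at 6277, 5473 and 5164 CPM in mutant libraries at 0 h, 2133, 2127 and 2011 at 1 h and 3034, 3719 and 3241 at 3 h. WT libraries had 7356, 6152 and 5342 CPM at 0 h, 1760, 2653 and 1592 at 1 h and 4560.0, 2723 and 1969 at 3 h. The mutant times did not overlap, while WT libraries at 3 h spread widely. It fell by 1.45 at 1 h (SE 0.12, edgeR adjusted p = 9.13e-06) and by 0.69 at 3 h (SE 0.12, adjusted p = 0.00196). The 3 h call was lost in a fit of all 18 seedling libraries (adjusted p = 0.0679). LHB1B2 has near-identical copies, and how reads that match several places were counted is not given, so its counts may include theirs.

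The light-harvesting list moved with LHB1B2. Of 21 tested genes 19 were lower at 1 h, with a median of -0.69, and 7 were lower at 3 h, with a median of -0.30. LHB1B1 (-1.21), LHCB3 (-1.30) and LHCA3 (-1.05) fell at 1 h (log2 changes, edgeR adjusted p = 0.000208, 1.33e-05 and 4.17e-05). The summed level of 7 mesophyll and photosynthetic markers moved the same way. It was 16175 to 18732 CPM at 0 h, 11111 to 12048 at 1 h and 13017 to 13546 at 3 h in mutant libraries, and 13994 to 17700, 7510 to 10917 and 9146 to 13534 CPM in WT libraries at the same times. These markers, of which 0 were at 0 counts, include light-harvesting genes. In the mutant 12 stomatal markers summed to 145 to 154, 115 to 124 and 114 to 122 CPM at 0, 1 and 3 h. In WT they summed to 140 to 181, 93.1 to 126 and 98.0 to 132 CPM. Of the 12 in the mutant, 4 were called lower and 1 higher at 1 h, and 2 lower and 0 higher at 3 h. The 6 trichome markers summed to 53.5 to 56.4, 54.0 to 59.1 and 58.2 to 61.5 CPM in the mutant. Their WT sums overlapped between times. Of the 4 tested, 1 was called lower and 1 higher at 3 h against 0 h, with a median log2 change of -0.63. The trichome sum thus does not stand for the whole list. In the mutant the sums of root and phloem markers overlapped between times. In WT the phloem sums were 374 to 407 CPM at 1 h and 409 to 480 CPM at 3 h, which did not overlap. The part of cell composition in the changes was not tested, and fewer cells of a type and less RNA per cell cannot be told apart in bulk samples.

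AT3G52720, alpha carbonic anhydrase 1, which interconverts carbon dioxide and bicarbonate, was at 22.2, 20.7 and 21.02 CPM in mutant libraries at 0 h, 11.6, 10.99 and 6.43 at 1 h and 10.15, 8.67 and 6.21 at 3 h. It stayed low, with overlapping levels at 1 and 3 h. It fell by 1.17 at 1 h (SE 0.19, edgeR adjusted p = 0.000642) and by 1.28 at 3 h (SE 0.19, adjusted p = 0.000874). ATBETAFRUCT4, a vacuolar invertase that splits sucrose, was at 309, 245 and 229 CPM at 0 h, 107, 102 and 82.9 at 1 h and 169, 205 and 186 at 3 h. It fell by 1.45 at 1 h (SE 0.13, adjusted p = 1.55e-05) and by 0.42 at 3 h (SE 0.13, adjusted p = 0.0392), the smallest 3 h change of the 27. That 3 h call was lost without mutant 0 h replicate 1, 1 h replicate 2, 3 h replicate 1 or 3 h replicate 3 (adjusted p = 0.110, 0.0567, 0.134 and 0.0793), and in the fit of all 18 seedling libraries (0.130).

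NCED4, a carotenoid cleavage enzyme of plastids, was at 26.7, 24.1 and 29.7 CPM in mutant libraries at 0 h, 14.1, 12.4 and 16.1 at 1 h and 12.8, 22.2 and 16.04 at 3 h. All later libraries were below those at 0 h, and 1 and 3 h overlapped. It fell by 0.93 at 1 h (SE 0.19, edgeR adjusted p = 0.00275) and by 0.59 at 3 h (SE 0.19, adjusted p = 0.0474), a call lost without any of 6 of the 9 mutant libraries (adjusted p = 0.0547 to 0.144) or in the fit of all 18 seedling libraries (0.129). UMAMIT46, of a family with amino acid exporters, was at 16.8, 17.6 and 19.3 CPM at 0 h, 12.95, 10.8 and 10.15 at 1 h and 9.13, 11.4 and 9.12 at 3 h. It fell by 0.69 at 1 h (SE 0.12, adjusted p = 0.00103) and by 0.79 at 3 h (SE 0.12, adjusted p = 0.00106). Of 87 transporter genes for nitrate, peptides, sugar, amino acids and water, 24 were lower and 15 higher at 1 h, and 14 lower and 9 higher at 3 h. UMAMIT47 (-1.30) and UMAMIT45 (-1.06) were lower at 1 h (log2 changes, adjusted p = 0.000142 and 0.00341).

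Of the 7 little described genes, 6 were lower at 1 h and 4 at 3 h. AT5G39520, a DUF1997 protein, was at 32.1, 25.1 and 34.4 CPM in mutant libraries at 0 h, 6.45, 10.6 and 8.76 at 1 h and 8.20, 18.2 and 21.5 at 3 h. WT libraries had 45.7, 43.1 and 57.1 CPM at 0 h, 7.55, 16.1 and 8.67 at 1 h and 24.6, 14.5 and 14.3 at 3 h. It fell by 1.84 at 1 h (SE 0.32, edgeR adjusted p = 0.000937), and its 3 h change was -0.87 (SE 0.30, adjusted p = 0.0636). Mutant 3 h libraries were all below 0 h but differed among themselves more than those at 0 h.

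AT4G16563, an aspartyl protease, was at 77.9, 46.03 and 46.8 CPM in mutant libraries at 0 h, 20.5, 15.6 and 10.8 at 1 h and 22.6, 36.2 and 20.5 at 3 h, and fell by 1.90 and 1.04 (SE 0.28 and 0.27, edgeR adjusted p = 0.000343 and 0.0189). The 3 h call was lost without mutant 0 h replicate 1, 3 h replicate 1 or 3 h replicate 3 (adjusted p = 0.0716, 0.0727 and 0.0681). AT4G23870, an uncharacterized protein, was at 21.96, 17.6 and 17.8 CPM at 0 h, 6.62, 7.76 and 5.84 at 1 h and 11.5, 10.4 and 6.48 at 3 h, and fell by 1.52 and 0.94 (SE 0.19 and 0.18, adjusted p = 0.000117 and 0.00448). AT5G01740, of the NTF2 family, was at 20.8, 22.6 and 28.9 CPM at 0 h, 8.24, 7.76 and 7.23 at 1 h and 7.51, 10.13 and 7.75 at 3 h, and fell by 1.66 and 1.44 (SE 0.16 and 0.15, adjusted p = 1.87e-05 and 9.21e-05). For AT5G01740 the 1 and 3 h libraries overlapped, while AT4G16563 and AT4G23870 were called higher at 3 h than at 1 h, calls lost in 4 and 9 of 16 alternatives.

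AT3G61198, a non-coding RNA, was at 19.5, 15.1 and 19.01 CPM in mutant libraries at 0 h, 7.23, 6.90 and 7.03 at 1 h and 9.82, 11.98 and 10.2 at 3 h, with close replicates and no overlap of times. It fell by 1.36 and 0.68 (SE 0.14 and 0.14, edgeR adjusted p = 3.5e-05 and 0.00513). AT1G73120, an F-box protein, was the sparsest at 1 h, at 0.449, 1.45 and 1.19 CPM in mutant libraries, with 2.57, 4.25 and 10.6 CPM at 0 h and 1.95, 3.36 and 1.59 at 3 h. It fell by 2.51 at 1 h (SE 0.56, adjusted p = 0.00447), and its 3 h change was -1.28 (SE 0.50, adjusted p = 0.0955). Its 0 h libraries differed several-fold among themselves.

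AT5G57785, an uncharacterized protein, was called at neither time in the mutant. It was at 3.91, 5.04 and 4.68 CPM in mutant libraries at 0 h, 3.36, 5.17 and 1.68 at 1 h and 3.38, 2.26 and 3.08 at 3 h, against 5.74, 7.35 and 6.20 CPM in WT at 0 h, 3.78, 2.51 and 1.51 at 1 h and 3.16, 2.69 and 2.21 at 3 h. The mutant 1 h library of replicate 2 was above every mutant 0 h library. Its changes were -0.45 at 1 h (SE 0.31, edgeR adjusted p = 0.274) and -0.57 at 3 h (SE 0.31, adjusted p = 0.218).

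The return between 1 and 3 h was tested directly in the mutant. At 3 h 15 of 27 genes were higher than at 1 h and 1 was lower, with a median log2 difference of 0.68, against -0.02 for all genes. In this comparison 14.8% of all genes were called higher and 13.9% lower. Among the genes called, PHI-1 had the largest difference, at 1.97 (SE 0.48, edgeR adjusted p = 0.0124), followed by AGP17 at 1.59 (SE 0.25, adjusted p = 0.00135) and EXLA1 at 1.13 (SE 0.27, adjusted p = 0.0106). XTH24, ATBETAFRUCT4 and XTH15 were higher by 1.06, 1.04 and 1.03 (adjusted p = 0.00105, 0.000433 and 0.0494), and AT5G39520 by 0.98 (adjusted p = 0.0449). Of the 16 calls 9 were kept under each of 16 alternatives. The calls lost in at least 1 were those of XTH15, AT5G39520, AT4G16563, AT4G23870, GASA1, BAG2 and AT3G15570. AGP22 was the 1 gene lower at 3 h than at 1 h, at -1.41 (SE 0.29, adjusted p = 0.00529). The secreted proteins were called higher in 3 of 3 cases and the chloroplast, sugar and transport genes in 2 of 5, a difference that was not tested. The count of 15 fell to 8 without mutant 1 h replicate 2, to 9 without 1 h replicate 3 and to 9 without 3 h replicate 2.

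Levels in the mutant and in WT at the same time are given as a description, since the WT libraries chose the genes. Picking genes high at 0 h and low later in WT favours a mutant below WT at 0 h and above it later. The median log2 ratio of mutant to WT mean CPM + 1 was -0.09 at 0 h, 0.04 at 1 h and 0.08 at 3 h. At 0 h 3 genes had all mutant libraries below all WT libraries and 0 had them above. Among the 15486 background genes, those at or above the starting level, 4.12% were below and 6.91% above. The 3 members below were AT5G39520, NCED4 and AT5G57785, with log2 ratios of -0.65, -0.34 and -0.42. At 1 h 3 genes had all mutant libraries above and 0 below, against 8.45% and 3.69% of the background genes. They were AT3G15570, UMAMIT46 and AT1G54820, at 0.52, 0.39 and 0.56. At 3 h 2 genes were above and 0 below, against 5.73% and 6.08% of the background genes. They were AT3G61198 at 0.20 and AT3G15570 at 0.41. In the other 24, 24 and 25 genes the genotypes overlapped.

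In leaves all 27 genes were in the count table and 25 passed the filter on low counts. With edgeR over 18639 genes, 7 of the 25 were higher in OXAITF1 than in WT leaves at an adjusted p under 0.05 and 3 were lower, with a median log2 difference of 0.32, against 0.05 for all genes. In this comparison 9.36% of all genes were called higher and 10.4% lower. Of the 7 higher genes, AT5G39520, AT3G61198 and AT5G57785 had 1, 0 and 2 counts over the WT libraries. They passed the filter through the OXAITF1 libraries alone, so only a higher call was open to them. The count of 7 and the median include these genes and cannot be read against the values of all genes as they stand. Leaf values are CPM after TMM scaling. With library totals alone the median of all genes moved to 0.46, and 8 members were called higher and 2 lower. Without either WT library edgeR called 0 genes of the whole table, so that the loss of the members' calls there says nothing of the members themselves. In those fits the OXAITF1 pair alone gives the spread, and the lone WT library is assumed to vary like it. The fitted differences kept their sign for the 10 genes called, for example 3.05 and 4.37 for XTH24 and -1.56 and -1.64 for AT1G54820 without WT replicate 1 and 2.

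The higher genes included both XTH members. XTH24 was at 104 and 327 CPM in OXAITF1 leaves and 10.4 and 25.9 CPM in WT leaves, a log2 difference of 3.57 (SE 0.76, edgeR adjusted p = 0.0404). XTH15 was at 33.4 and 98.6 CPM in OXAITF1 leaves and 4.26 and 1.05 CPM in WT leaves, a difference of 4.64 (SE 0.87, adjusted p = 0.0321). The groups did not overlap for either gene, though replicates within a group differed several-fold. With 2 libraries per group such a gap is easily met, here and below. Its share among all leaf genes was not counted. In the XTH family 5 of 23 tested genes were higher and 2 lower in leaves. XTH25 (4.89) was higher and XTH31 (-5.91) and XTH7 (-3.06) were lower (log2 differences, adjusted p = 0.0141, 0.0178 and 0.0141).

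AGP7 was at 18.2 and 19.2 CPM in OXAITF1 leaves and 11.9 and 9.28 CPM in WT leaves, a difference of 0.82 (SE 0.19, edgeR adjusted p = 0.0482), not called with RLE size factors (adjusted p = 0.0523) or without OXAITF1 replicate 2 (0.0520). AT4G23870 was at 23.4 and 31.1 CPM in OXAITF1 leaves and 11.8 and 10.6 CPM in WT leaves, a difference of 1.28 (SE 0.20, adjusted p = 0.0236). The groups did not overlap for either gene.

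The other 3 higher genes were close to absent in WT leaves. AT5G39520 had 1617 counts summed over the OXAITF1 leaf libraries and 1 count over the WT libraries, a ratio of 1053 after TMM scaling of the library sizes, with a 95% interval of 189 to 41632 that covers counting error only. AT5G57785 had 160 counts in OXAITF1 leaves and 2 in WT leaves, a ratio of 52.1 (14.2 to 434). AT3G61198 had 354 counts in OXAITF1 leaves and 0 in WT leaves, so that it was at least 76.9-fold higher on the same scale, with a floor of 3 counts over the WT group. The edgeR adjusted p was 0.029, 0.0206 and 0.0328, in tests where only a higher outcome was open. Replicates within OXAITF1 differed here too, at 9.91 and 64.97 CPM for AT5G39520 and 3.79 and 12.7 CPM for AT3G61198. The filtered genes were near the floor, with 6 and 0 counts for AT1G73120 and 9 and 2 counts for AGP22 in OXAITF1 and WT leaves.

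All 3 genes called lower in leaves were of the intracellular signalling role, a grouping made once the genes were known. Some members of other roles stood further below WT than AT3G15570 did, without being called. AT1G54820 was at 36.3 and 25.2 CPM in OXAITF1 leaves and 95.6 and 90.5 CPM in WT leaves, a difference of -1.60 (SE 0.22, edgeR adjusted p = 0.0195). RR16 was at 2.96 and 3.45 CPM in OXAITF1 leaves and 7.55 and 7.45 CPM in WT leaves, a difference of -1.22 (SE 0.22, adjusted p = 0.0296). AT3G15570 was at 50.4 and 47.8 CPM in OXAITF1 leaves and 71.8 and 80.3 CPM in WT leaves, a difference of -0.63 (SE 0.14, adjusted p = 0.0427). The groups did not overlap for any of these 3 genes, which with 2 libraries each adds little to the calls. AT3G15570 was at -0.21 with library totals alone (adjusted p = 0.289). In the cytokinin list 7 of 16 tested genes were lower in leaves. They included the type-A genes ARR6 (-4.49), ARR7 (-2.96) and RR5 (-2.36) (log2 differences, adjusted p = 0.0323, 0.0316 and 0.0262).

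Other members did not pass the test in leaves. PIF4 was at 223 and 249.7 CPM in OXAITF1 leaves and 312 and 332 CPM in WT leaves, a difference of -0.44 (SE 0.16, edgeR adjusted p = 0.114). LHB1B2 was at 12290 and 13780 CPM in OXAITF1 leaves and 20510 and 20750 CPM in WT leaves, a difference of -0.66 (SE 0.29, adjusted p = 0.167). For both the OXAITF1 libraries were below the WT libraries, which with 2 libraries each is easily met. In the light-harvesting list 17 of 21 genes were lower in OXAITF1 leaves, with a median of -1.51. Of the 7 mesophyll and photosynthetic markers 6 were lower there, with a median of -2.19, and their part in the leaf differences was not tested. GASA1 was at 55.2 and 243 CPM in OXAITF1 leaves and 32.5 and 66.9 CPM in WT leaves, and RALF23 at 98.7 and 83.7 and 68.96 and 77.5 CPM, with differences of 1.59 and 0.32 (adjusted p = 0.208 and 0.217).

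In several members the OXAITF1 libraries pulled apart. PHI-1 was at 2.04 and 32.8 CPM in OXAITF1 leaves and 10.4 and 5.98 CPM in WT leaves, so that 1 library lay below and 1 above WT. Its difference of 1.09 (SE 1.21, edgeR adjusted p = 0.55) became -2.04 without OXAITF1 replicate 2 (adjusted p = 0.017). That value rests on 1 OXAITF1 library, assumed to vary like the WT pair, which alone gives the spread. AT3G52720 was at 10.7 and 1.79 CPM in OXAITF1 leaves and 23.5 and 25.1 CPM in WT leaves, a difference of -1.96 (SE 0.80, adjusted p = 0.149). UMAMIT46 was at 24.3 and 9.66 and 42.4 and 57.8 CPM, AGP17 at 12.6 and 27.6 and 41.5 and 54.3 CPM and GATL6 at 27.3 and 49.2 and 77.5 and 76.8 CPM in OXAITF1 and WT leaves. Their differences were -1.56, -1.25 and -1.01 (adjusted p = 0.0819, 0.0948 and 0.0808), with OXAITF1 below WT in each. The remaining members differed by -0.28 to 2.35, with adjusted p of 0.122 to 0.81.

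**Figure D5:**
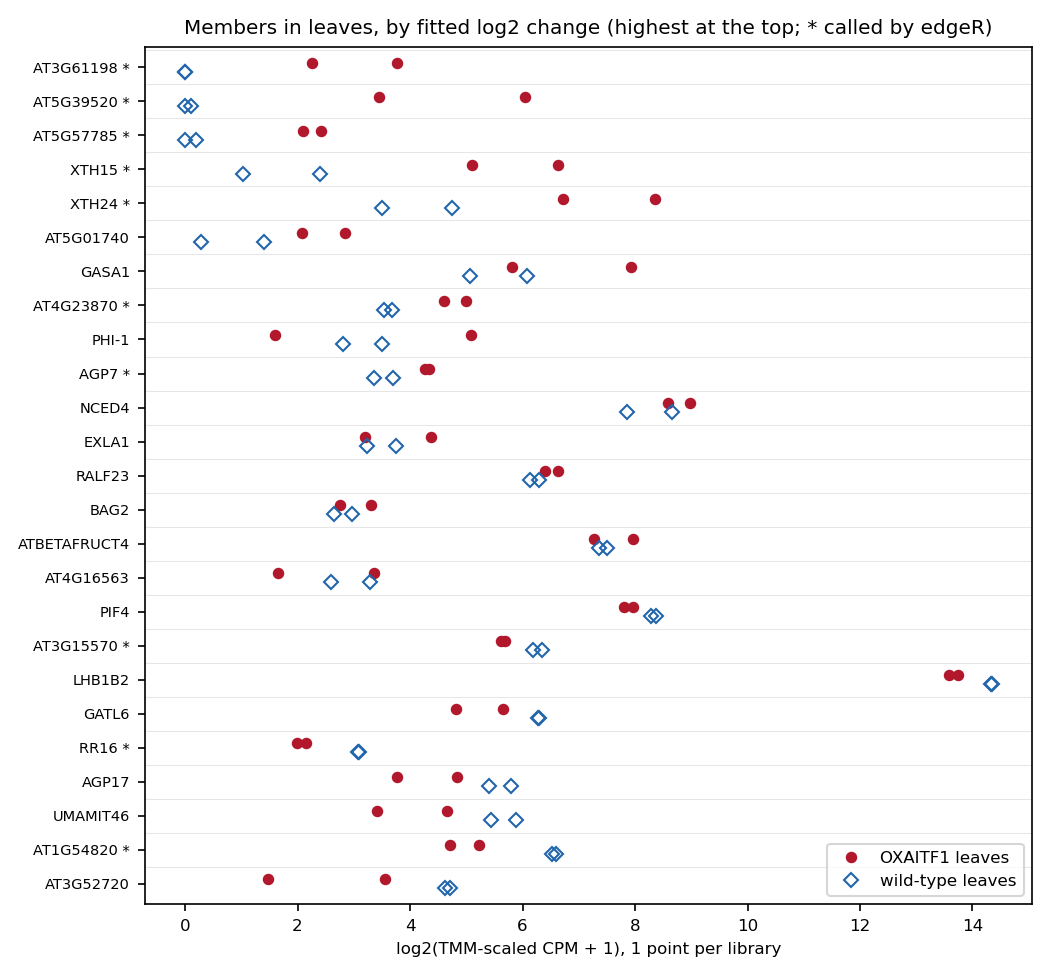
Leaf levels as log2(TMM-scaled CPM + 1) of the 25 genes tested, 1 point per library, with OXAITF1 as filled circles and wild-type leaves as open diamonds. Genes run from the highest to the lowest fitted log2 difference, and a star marks the 10 called by edgeR, 7 higher and 3 lower.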

How the data were processed

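Reads were aligned with HISAT2 2.1.0 to TAIR10 and counted per gene with featureCounts (Subread 1.6.5), per the submitters' processing notes. The deposited values are raw counts per gene, and the 22 library files held the same counts as the combined tables. For the strand setting and for multi-mapping reads, nothing is stated in the sources used here. CPM was computed as count divided by library total. Differences were tested with edgeR 4.0.16 (TMM scaling, filterByExpr, quasi-likelihood test, R 4.3.3) on the 9 mutant libraries and, separately, on the 4 leaf libraries, with Benjamini-Hochberg adjustment over all genes tested and a threshold of 0.05. DESeq2 1.42.0, RLE size factors, library totals, other filters, other member rules, a replicate block and leaving out each library were alternatives. The fit was also run on simulated counts that held no replicate effect, and the outcome of that run is not used as support here. The members, gene lists, roles and tests were chosen with earlier results of these data known. All 27 members are named. Genes outside the set, apart from the targeted genes and those at the selection threshold, are examples chosen after their values were seen.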

Additional observations from a re-analysis of the deposited data

How the results depend on the processing

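Leaving out each mutant library gave 24 to 26 members lower at 1 h, 14 to 19 lower at 3 h, 8 to 15 higher and 1 to 2 lower at 3 h against 1 h. In leaves the ranges were 0 to 11 lower and 0 to 10 higher. Members lower at 3 h against 1 h numbered 0 with a 20 CPM minimum, 2 with TMM-chosen members, 2 with library totals and 2 with DESeq2. Members lower in leaves numbered 0 with the 20 CPM minimum, 8 with DESeq2 and 0 with the replicate block, which also gave 0 higher. In that block fit and without WT leaf replicate 1 or 2, edgeR called no gene, with lowest adjusted p of 0.0527, 0.164 and 0.169, so these fits say nothing of the members' stability. At an unadjusted p under 0.05 it then had 7, 4 and 2 members lower and 9, 8 and 6 higher. DESeq2 on all 4 libraries called 8 lower and 8 higher.

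Same-numbered mutant libraries deviated together weakly, with correlations of -0.0141 to 0.285 (median 0.0852, 4 of 9 above 0.1). Differently numbered ones had correlations of -0.22 to 0.209 (median -0.115, 3 of 18 above 0.1). Libraries of the same number were thus somewhat more alike. The main fit did not take the numbers as pairs, and a shared replicate effect was not tested. With the replicate block 26 and 21 members were lower at 1 h and 3 h, and 17 higher and 1 lower at 3 h against 1 h. Calls kept under every alternative run numbered 24 of 25 at 1 h, 12 of 19 at 3 h, 9 of 16 at 3 h against 1 h and 0 of 10 in leaves.

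Reversals were all in differences not called with all libraries. Leaving out each library in turn, PHI-1 at 3 h against 0 h ran from -0.7879 to 0.0601. At 3 h against 1 h AT3G52720 ran from -0.307 to 0.0537 and AT5G57785 from -0.4377 to 0.3141. In leaves PHI-1 ran from -2.0397 to 2.01, EXLA1 from -0.3929 to 0.9335, AT4G16563 from -1.7285 to 0.4259, ATBETAFRUCT4 from -0.1545 to 0.4917 and BAG2 from -0.0727 to 0.5088. With library totals AT4G16563 was 0.1212. The causes were not tested. The choice of the 75 lowest genes was not run, as only 27 passed.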
